A study of Mus musculus with 4 samples.

Results

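The replication-dependent histone genes of the mouse are the protein-coding genes whose symbols begin with Hist1h, Hist2h, Hist3h or Hist4h in the GENCODE annotation (version M1) of mm9, and 67 of the 22367 protein-coding genes of that annotation carry such a symbol. They encode the linker histone H1 (6 genes) and the core histones H2A (19), H2B (18), H3 (11) and H4 (13). Of these genes 55 lie on chromosome 13, 9 on chromosome 3, 2 on chromosome 11 and 1 on chromosome 6.

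Replication-dependent histone genes supply the histones that package newly copied DNA, and they are transcribed in S phase. They are short, lack introns as a rule, and make mRNAs that end in a stem-loop bound by SLBP in place of a poly(A) tail. Many H2A and H2B genes stand head to head and share a promoter, and the core histone proteins encoded by the copies of one type are nearly the same. Acetylation of H3 at lysine 9 (H3K9ac) and lysine 14 (H3K14ac) is known to mark the chromatin around active transcription start sites (TSSs).

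Chromatin of untreated mouse embryonic stem (mES) cells of the E14 line, strain 129P2/OlaHsd, was immunoprecipitated with a rabbit polyclonal antibody against H3K9ac, with the mouse monoclonal antibody 13HH3 against H3K14ac, or with the mouse monoclonal antibody 7G8 against H3K14ac, and input DNA with no antibody served as the control. The methods describe wild type cells derived from blastocysts and taken off feeder cells, so the line is given differently by both sources. Each group holds 1 library, and no test between replicates was possible. Every interval given here is an exact 95% interval (Clopper-Pearson) of a ratio of 2 tag counts, covers counting error only, and compares libraries, not conditions.

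The 4 libraries held 23181544 tags (mapped reads) for H3K9ac, 21626227 for 13HH3, 23837354 for 7G8 and 19313142 for input. The stem cell markers stood above the other marker lists for H3K9ac, with a median log2 ratio over input of 3.26 over 8 genes, against 1.26 over 6 fibroblast markers and 1.61 over 3 erythroid markers. For 13HH3 the medians were 1.67, 0.30 and 1.16 in this order, and for 7G8 they were 1.16, 0.34 and 1.28, so the stem cell markers were not highest for 7G8. The range of the stem cell markers was wide, from 0.17 at Esrrb to 5.09 at Zfp42. The adult globin gene Hbb-b1 was at -1.14, whereas Klf1 was at 2.80.

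The histone genes have promoters of distinct kinds, and for that reason 1 promoter of each type is shown, that of the member with the highest ratio of H3K9ac over input. The sequences are the 250 bases before the annotated TSS in mm9, read 5′ to 3′ on the strand of the gene, at chr13:21872495-21872744 (minus strand) for Hist1h1b, chr13:23625525-23625774 (plus) for Hist1h2af, chr13:22134833-22135082 (plus) for Hist1h2bj, chr13:23837472-23837721 (minus) for Hist1h3c and chr13:23622669-23622918 (plus) for Hist1h4h. Capitals mark the words TATAAA, which TBP binds, CCAAT, the site of NF-Y, ATTTGCAT, the octamer of Oct-1, GGTCCG, a word of site II of H4 promoters where HINFP binds, and AAACACA, the H1 box, on either strand.
Hist1h1b: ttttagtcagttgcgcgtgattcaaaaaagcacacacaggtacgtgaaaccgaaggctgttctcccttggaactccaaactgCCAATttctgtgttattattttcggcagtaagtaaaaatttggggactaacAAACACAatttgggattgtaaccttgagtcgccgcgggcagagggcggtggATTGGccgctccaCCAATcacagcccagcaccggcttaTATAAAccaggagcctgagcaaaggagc
Hist1h2af: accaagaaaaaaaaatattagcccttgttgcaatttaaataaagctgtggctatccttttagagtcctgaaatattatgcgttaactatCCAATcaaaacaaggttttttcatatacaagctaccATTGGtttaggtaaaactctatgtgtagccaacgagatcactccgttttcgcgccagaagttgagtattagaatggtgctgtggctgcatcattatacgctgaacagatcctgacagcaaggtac
Hist1h2bj: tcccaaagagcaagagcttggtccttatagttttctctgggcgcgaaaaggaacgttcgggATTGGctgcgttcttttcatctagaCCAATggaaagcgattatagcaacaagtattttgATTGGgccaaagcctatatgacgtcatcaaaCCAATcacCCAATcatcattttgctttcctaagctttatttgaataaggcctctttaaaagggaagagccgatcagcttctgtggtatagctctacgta
Hist1h3c: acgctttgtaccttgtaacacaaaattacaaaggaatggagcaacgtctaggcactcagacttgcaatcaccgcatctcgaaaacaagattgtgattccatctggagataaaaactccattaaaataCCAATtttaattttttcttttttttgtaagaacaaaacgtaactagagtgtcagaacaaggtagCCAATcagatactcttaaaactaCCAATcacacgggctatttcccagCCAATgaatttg
Hist1h4h: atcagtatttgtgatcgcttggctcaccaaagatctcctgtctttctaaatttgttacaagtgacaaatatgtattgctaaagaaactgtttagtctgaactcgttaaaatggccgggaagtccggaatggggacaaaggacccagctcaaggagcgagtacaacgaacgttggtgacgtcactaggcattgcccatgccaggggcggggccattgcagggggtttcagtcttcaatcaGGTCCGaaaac

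Hist1h1b, which encodes H1.5, carried the H1 box at -117, CCAAT words at -168, -66 and -53 and TATAAA at -28 from its TSS. The promoter of Hist1h2bj held 5 CCAAT words, and that of Hist1h4h held GGTCCG at -11 and no CCAAT. Over all 67 members CCAAT was found in 57 promoters (85.1%), against 35.0% of all protein-coding promoters of the same length. It was present in 19 of 19 H2A and 18 of 18 H2B promoters but in 4 of 13 H4 promoters. GGTCCG was found in 11 of 13 H4 promoters, in 2 other members, and in 7.79% of all promoters. The octamer was found in 8 of 18 H2B promoters and in 7 of 19 H2A promoters, and in 1.62% of all promoters. The H1 box was found in 5 of 6 H1 promoters and in 5.67% of all promoters, and TATAAA in 33 of 67 members (49.3%) and in 12.3% of all promoters. H2A and H2B genes that face away from each other share the searched DNA, so their counts are not independent. Positions are counted from the start of the gene record. At some members, such as Hist1h2bl and Hist4h4, that start is the start of the coding sequence, so the searched stretches are not alike. At Hist1h2be and Hist2h3c1 it lies far before the coding sequence. The record of Hist2h3c1 starts inside Hist2h2aa1, so these genes share most of the searched stretch. The words are matches of letters only, and binding was not measured.

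The other mark of these genes in the sequence is the stem-loop after the stop codon, shown for the same members because it is what sets their mRNAs apart. Capitals mark the 16 bases that form a stem of 6 base pairs and a loop of 4 bases, with 5 flanking bases on each side. The windows in mm9 are chr13:21871701-21871726 (minus strand), chr13:23626223-23626248 (plus), chr13:22135502-22135527 (plus), chr13:23836911-23836936 (minus) and chr13:23623322-23623347 (plus), in the order of the lines.
Hist1h1b: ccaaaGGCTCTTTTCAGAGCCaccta
Hist1h2af: ccaaaGGCTCTTTTCAGAGCCaccac
Hist1h2bj: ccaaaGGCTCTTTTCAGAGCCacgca
Hist1h3c: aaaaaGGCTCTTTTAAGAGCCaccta
Hist1h4h: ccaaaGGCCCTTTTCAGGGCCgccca
A stem-loop of this form was found within 300 bases after the coding sequence in 63 of the 67 members, at a median of 31.0 bases after the stop codon. The members with no match in that window were Hist1h2an, Hist1h2al, Hist2h2be and Hist2h2bb. Among all protein-coding genes 65 (0.291%) had a match, and the 2 that are not members were H2afx, the gene of the H2A variant of DNA damage signalling, and 1700014N06Rik. The form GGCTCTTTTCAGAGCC was used by 39 of the 63 members.

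The members carried high H3K9ac. For every gene the tags less than 1 kb from its TSS were summed and scaled to a library of 10000000 tags (10M). A ratio over input was formed only where the input had at least 5 tags, which 62 members and 21138 of all genes met. The median log2 ratio of H3K9ac over input was 3.71 over the 62 members and 1.68 over all genes, and the median of the members stood at the 96.2 percentile of all genes. A ratio of 2-fold or more was reached by 60 of 62 members, beside 63.8% of all genes. The members below it were Hist1h2aa and Hist1h2ba. With scaling by background bins, in place of total tags, 62 of 62 members reached it, beside 70.2% of all genes.

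Both antibodies against H3K14ac gave lower ratios at the same TSSs. For 13HH3 the median over members was 1.39, against 0.52 over all genes, and 38 of 62 members reached 2-fold, beside 27.1% of all genes. For 7G8 the median was 1.86, against 0.48 over all genes, and 56 of 62 members reached 2-fold, beside 25.8% of all genes.

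Part of the distance from all genes lay in the input, and for 13HH3 the levels before dividing by input were close. The members had a median of 6.73 input tags per 10M in the window, and all genes had 9.84. Without dividing by input, the median level was 83.3 tags per 10M at members and 35.8 at all genes for H3K9ac, 24.5 and 14.3 for 7G8, and 15.7 and 15.3 for 13HH3. The windows of the members held fewer 36-base words found once in the genome, a median of 76.0% against 98.8%, so these levels are not alike in how many reads could be placed. Scaling by background bins, in place of total tags, moved every H3K9ac ratio by 0.41 on the log2 scale, 13HH3 by 0.07 and 7G8 by -0.07, for members and all genes alike.

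**Figure D1:**
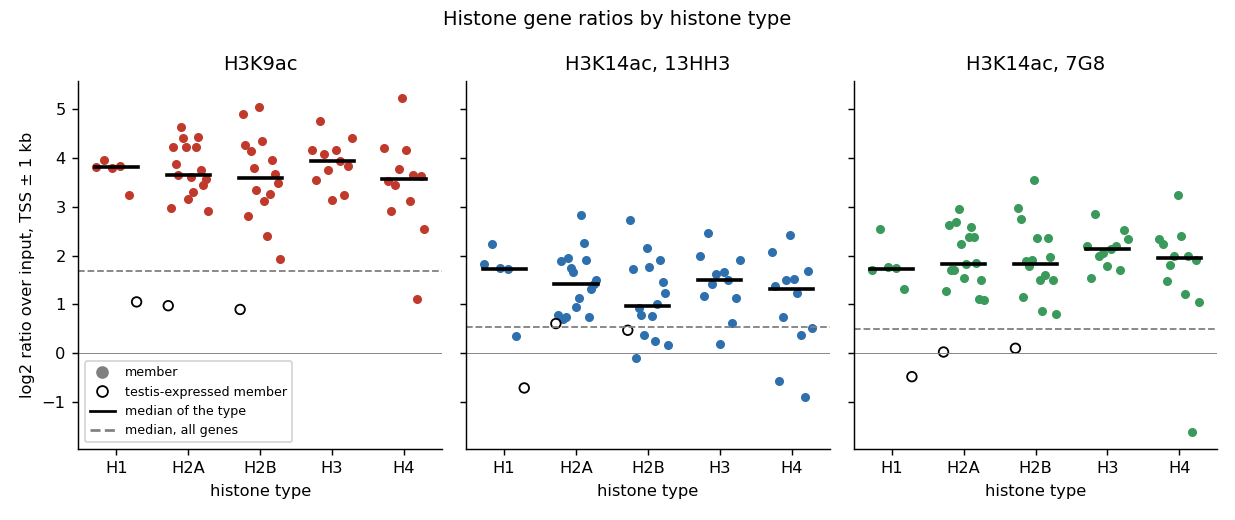
Log2 ratio over input within 1 kb of the TSS (vertical axis) for the 62 histone genes with at least 5 input tags, by histone type (horizontal axis), in the H3K9ac, 13HH3 and 7G8 libraries. Filled points are members, open circles are the 3 testis-expressed members, black bars are medians of the type and dashed lines are medians of all protein-coding genes. For H3K9ac the type medians lie between 3.58 and 3.95, and the open circles lie near 1.

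The linker histone H1, which binds DNA between nucleosomes, is encoded by 6 members, all on chromosome 13. Hist1h1b had 301 tags of H3K9ac, 85 of 13HH3, 115 of 7G8 and 16 of input, and its ratios over input were 3.97 (3.25 to 4.80) for H3K9ac, 2.25 (1.46 to 3.12) for 13HH3 and 2.54 (1.78 to 3.40) for 7G8 on the log2 scale. These were the highest H3K9ac and 13HH3 ratios of the H1 genes. Hist1h1t, which encodes the testis-specific linker histone H1t, had 62, 17, 22 and 25 tags in the same order. Its ratios were 1.05 (0.36 to 1.78), -0.72 (-1.70 to 0.23) and -0.49 (-1.38 to 0.40), so the intervals of both H3K14ac ratios include 0. The other H1 genes lay between 3.25 (Hist1h1e) and 3.85 (Hist1h1d) for H3K9ac.

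H2A pairs with H2B in the nucleosome, and 17 of 19 H2A genes had enough input tags. Hist1h2af had 180 tags of H3K9ac, 26 of 13HH3, 48 of 7G8 and 6 of input, and the highest H3K9ac ratio of the type, 4.64 (3.49 to 6.11). The interval is wide because the denominator holds few tags. The lowest was Hist1h2aa, the gene of the testis-specific H2A, with 47, 34, 25 and 20 tags and a H3K9ac ratio of 0.97 (0.19 to 1.80). Its H3K14ac ratios were 0.60 (-0.24 to 1.48) for 13HH3 and 0.02 (-0.89 to 0.94) for 7G8.

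Hist1h2al lies alone at chr13:51298057-51298434, far from the clusters, with 59 tags of H3K9ac, 40 of 13HH3, 32 of 7G8 and 5 of input. Its 13HH3 ratio over input of 2.84 (1.50 to 4.54) was the highest of all 62 members, and its H3K9ac ratio was 3.30 (1.99 to 4.97). The ratio of 13HH3 over H3K9ac was -0.46 (-1.08 to 0.14), against a median of -2.34 over the H2A genes, and Hist1h2aa was at -0.37 (-1.05 to 0.30). With windows of 2 kb on each side its ratios were 1.50 for H3K9ac and 1.31 for 13HH3, and 61.6% of the 36-base words of its window occur once in the genome.

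The H2B genes ran from 0.89 to 5.04 for H3K9ac. Hist1h2bj had 198 tags of H3K9ac, 25 of 13HH3, 72 of 7G8 and 5 of input, with ratios of 5.04 (3.80 to 6.68), 2.16 (0.75 to 3.90) and 3.54 (2.26 to 5.21). Hist1h2bb had more tags, 323, 67, 87 and 9, and the highest 13HH3 ratio of the type, 2.73 (1.72 to 3.92), beside a H3K9ac ratio of 4.90 (3.96 to 6.04). Hist1h2ba, the gene of the testis-specific H2B, was lowest for H3K9ac at 0.89 (0.14 to 1.69), with 49, 34, 29 and 22 tags. Hist1h2be was lowest for 13HH3, with 218, 27, 71 and 26 tags and ratios of 2.80 (2.21 to 3.45), -0.11 (-0.94 to 0.73) and 1.15 (0.48 to 1.85). Its gene record spans chr13:23675611-23712993 and starts far from its coding sequence, so its window lies at a distant start.

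The H3 genes encode the histone that carries both marks. All 11 H3 genes reached 2-fold for H3K9ac, beside 63.8% of all genes, and for 7G8, beside 25.8%, and 9 of 11 did for 13HH3, beside 27.1%. Hist1h3c was highest for H3K9ac and 13HH3, with 360 tags of H3K9ac, 68 of 13HH3, 98 of 7G8 and 11 of input and ratios of 4.77 (3.91 to 5.78), 2.46 (1.54 to 3.53) and 2.85 (1.95 to 3.90). Hist1h3f was lowest for both, with 116, 14, 47 and 11 tags and ratios of 3.14 (2.24 to 4.18), 0.18 (-1.06 to 1.47) and 1.79 (0.82 to 2.89).

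A gene of H4, the partner of H3, had the highest single H3K9ac ratio, with only 6 input tags. Its interval overlaps those of Hist1h2bj, Hist1h2bb and Hist1h3c, and Hist1h3c had more H3K9ac tags, 360. Hist1h4h, at chr13:23622919-23623388, had 272 tags of H3K9ac, 36 of 13HH3, 70 of 7G8 and 6 of input, and ratios of 5.24 (4.10 to 6.70), 2.42 (1.16 to 3.96) and 3.24 (2.05 to 4.74). Hist1h4n was lowest of the H4 genes, with 13, 3, 2 and 5 tags, and its ratio of 1.12 (-0.46 to 2.96) for H3K9ac has an interval that includes 0. Only 5.00% of the 36-base words of its window occur once in the genome. Hist1h4c, named after its values were seen, had 108, 9, 41 and 12 tags and the lowest ratio of 13HH3 over H3K9ac of the members, -3.48 (-4.65 to -2.51).

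The medians for H3K9ac were 3.81 for H1, 3.66 for H2A, 3.58 for H2B, 3.95 for H3 and 3.58 for H4, and the ranges of the types overlapped. For 13HH3 they were 1.73, 1.42, 0.96, 1.50 and 1.30, and for 7G8 1.72, 1.83, 1.83, 2.13 and 1.95, in the same order. Among members with at least 75% unique words the 7G8 median of H2A was 1.19, and with windows of 2 kb on each side the medians were 0.71 for 13HH3 at H4 and 3.29 for H3K9ac at H3. Leaving out the 3 testis-expressed members, a step added after seeing the data, raised the H3K9ac median over all members from 3.71 to 3.76. Then 59 of 59 reached 2-fold, beside 63.8% of all genes. This count follows from the removal, as Hist1h2aa and Hist1h2ba, the only members below 2-fold, were among the 3.

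Both antibodies against H3K14ac gave different ratios at these genes. The 7G8 ratio over input was above the 13HH3 ratio at 54 of 62 members (87.1%), beside 47.2% of all protein-coding genes. The median difference, 7G8 minus 13HH3, was 0.57 on the log2 scale at members and -0.04 at all genes. With background scaling the shares were 82.3% of members and 37.7% of all genes, and with windows of 500 bp they were 70.3% and 42.2%. Each antibody has 1 library, so antibody and library cannot be told apart.

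The ratio of 13HH3 over H3K9ac was low at members, with a median of -2.32 against -1.12 over all genes, at the 6.70 percentile. Since H3K9ac was high at members, they were set beside the 1931 other genes whose H3K9ac ratio lay between 3.24 and 4.17, the interquartile range of the members. Over the 30 members in that range the median 13HH3 ratio was 1.34, and over the other genes it was 1.64. For 7G8 the medians were 1.86 and 1.70. The difference for 13HH3, -0.31, ran from -0.43 to -0.13 over the alternatives tried, and that for 7G8, 0.17, from 0.10 to 0.22. No test was made, since the libraries have no replicates.

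**Figure D2:**
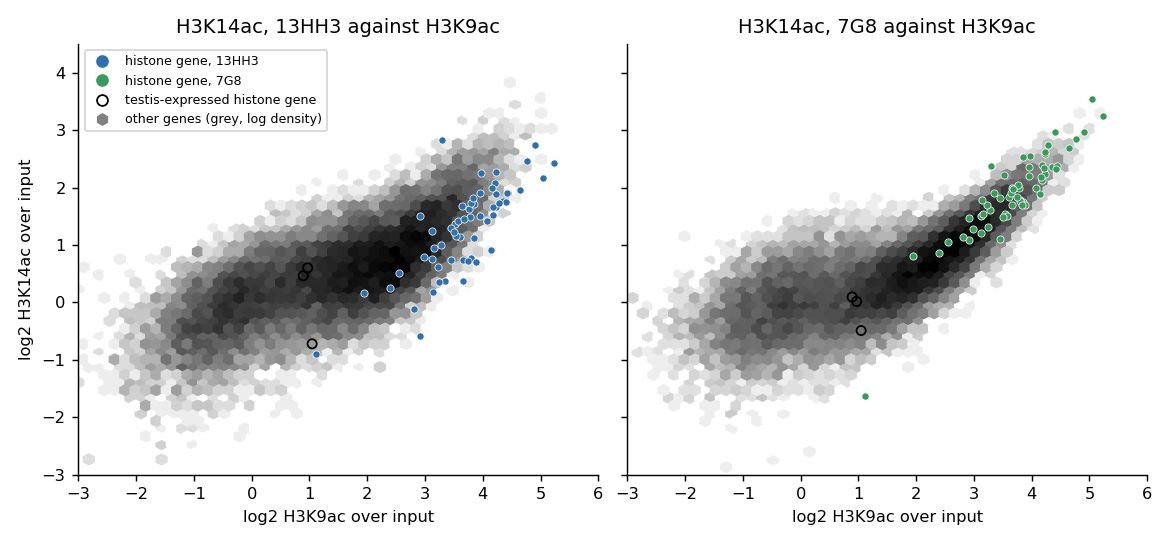
Log2 ratio of H3K14ac over input (vertical axis), with 13HH3 at left and 7G8 at right, against log2 ratio of H3K9ac over input (horizontal axis), within 1 kb of the TSS. Grey hexagons give the density of the other protein-coding genes on a log scale, coloured points are histone genes and open circles are the 3 testis-expressed members. Over the 30 histone genes with H3K9ac ratios between 3.24 and 4.17 the median is 1.34 for 13HH3, against 1.64 for other genes, and 1.86 for 7G8, against 1.70.

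On chromosome 13 the members form 5 runs with gaps of 100 kb or more between them, of 18, 5, 29, 2 and 1 genes in order along the chromosome. The run of 5 genes at chr13:22126982-22135545 had the highest median for H3K9ac, 4.35, with members from 4.17 (Hist1h4i) to 5.04 (Hist1h2bj). Of these 5 genes only Hist1h4i had at least 75% unique words (88.2%), and the others had from 66.6% to 66.9% with 5 to 11 input tags. The run of 29 genes at chr13:23622919-23856283 had a median of 3.80, and the run of 18 genes at chr13:21807632-21929399 a median of 3.27 over the 13 genes with enough input tags. The ranges of these 2 runs, 1.05 to 5.24 and 1.12 to 4.24, overlapped each other and that of chromosome 3. The run of 2 genes holds only the testis-expressed Hist1h2ba and Hist1h2aa, which face away from each other with 306 bp between their TSSs. With scaling by total tags neither gene reached 2-fold in any of the 3 libraries. With background scaling both did for H3K9ac, as did 62 of 62 members, beside 70.2% of all genes.

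The cluster of 9 genes on chromosome 3 was even in H3K9ac, with ratios from 3.46 to 4.44 and a median of 3.67. The windows of Hist2h2ab, Hist2h2ac and Hist2h2be overlap, as do those of Hist2h3b and Hist2h2bb, and of Hist2h2aa1 and Hist2h3c1. Ratios of overlapping windows share tags, so the 9 values are not separate. Hist2h4, an H4 gene with 98.5% of its words unique, had 284 tags of H3K9ac, 68 of 13HH3, 88 of 7G8 and 19 of input, and ratios of 3.64 (2.97 to 4.39), 1.68 (0.93 to 2.49) and 1.91 (1.18 to 2.71). Hist2h3b, an H3 gene, had 155, 22, 64 and 9 tags and a wider gap between the H3K14ac antibodies, 1.13 (-0.05 to 2.43) for 13HH3 and 2.53 (1.51 to 3.72) for 7G8. Both intervals overlap.

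Of the H2A genes of chromosome 3, Hist2h2ab had 224, 47, 45 and 17 tags and a H3K9ac ratio of 3.46 (2.74 to 4.26). Hist2h2ac had 199, 42, 49 and 14 tags and 3.57 (2.79 to 4.46), and it shares its promoter with the H2B gene Hist2h2be, which had 176, 34, 45 and 13 tags and 3.50 (2.68 to 4.43). The values of this head-to-head pair rest on overlapping windows, as their TSSs lie 241 bp apart. Hist2h2bb, the other H2B gene, had 229, 46, 73 and 15 tags and 3.67 (2.92 to 4.53).

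Hist2h2aa1 and Hist2h2aa2 are H2A genes with much repeated sequence in their windows, and Hist2h3c1 has a gene record that starts inside Hist2h2aa1. Hist2h2aa1 had 130, 21, 32 and 5 tags and a H3K9ac ratio of 4.44 (3.18 to 6.08), and Hist2h2aa2 had 113, 13, 31 and 7 tags and 3.75 (2.66 to 5.10). Hist2h3c1 had 128, 21, 31 and 5 tags and 4.41 (3.15 to 6.06), so its window and that of Hist2h2aa1 hold nearly the same tags. In these windows 41.0%, 43.0% and 40.2% of the words were unique.

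The members on chromosomes 11 and 6 had lower H3K9ac ratios than most others. Hist3h2a had 207 tags of H3K9ac, 73 of 13HH3, 60 of 7G8 and 23 of input, and ratios of 2.91 (2.28 to 3.60), 1.50 (0.81 to 2.25) and 1.08 (0.36 to 1.84). The TSS of Trim17 lies in the same window and gave the same counts. Hist3h2ba had 92, 25, 43 and 20 tags and ratios of 1.94 (1.23 to 2.71), 0.16 (-0.75 to 1.08) and 0.80 (0.00 to 1.64). Hist4h4, the only member on chromosome 6, had 280, 64, 102 and 40 tags and ratios of 2.54 (2.06 to 3.06), 0.51 (-0.08 to 1.12) and 1.05 (0.51 to 1.61). Its 120.8 tags of H3K9ac per 10M were above the median of the members, 83.3, and its input, 20.7 per 10M, was the highest of all members. Hist3h2a, at 89.3, was above that median too, with an input of 11.9 against a median of 6.73, whereas Hist3h2ba was below it at 39.7.

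In bins of 1 kb along the runs, with 5 kb added at each end, 185 of 331 bins with at least 5 input tags reached 2-fold for H3K9ac (55.9%), beside 8.81% of such bins in the genome. For 7G8 it was 99 of 331 (29.9%), beside 5.79%, and for 13HH3 52 of 331 (15.7%), beside 7.43%. These shares include the bins at the TSSs of members, and the TSSs of other genes in the runs were not set apart. For H3K9ac the runs of chromosome 13 had 39 of 63, 9 of 12, 85 of 160, 2 of 10 and 0 of 8 such bins in order along the chromosome, and the runs of chromosomes 3, 11 and 6 had 37 of 53, 7 of 16 and 6 of 9. Outside the runs the share for H3K9ac was 8.31% on chromosome 13, 6.94% on chromosome 3, 14% on chromosome 11 and 6.26% on chromosome 6.

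The share fell with distance from the nearest member TSS. For H3K9ac it was 95.5% of bins within 1 kb, 86.7% from 1 to 2 kb, 54.6% from 2 to 5 kb, 31.8% from 5 to 10 kb and 17.8% from 10 to 20 kb. For 7G8 the shares were 75.8%, 44.4%, 15.5%, 15.2% and 6.67%. For 13HH3 they were 43.9%, 13.3%, 7.22%, 10.6% and 4.44%, so beyond 2 kb the 13HH3 share lay between 4.44% and 10.6%. Beyond 20 kb only 12 bins had enough input tags, and 1 of them reached 2-fold in each library.

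**Figure D3:**
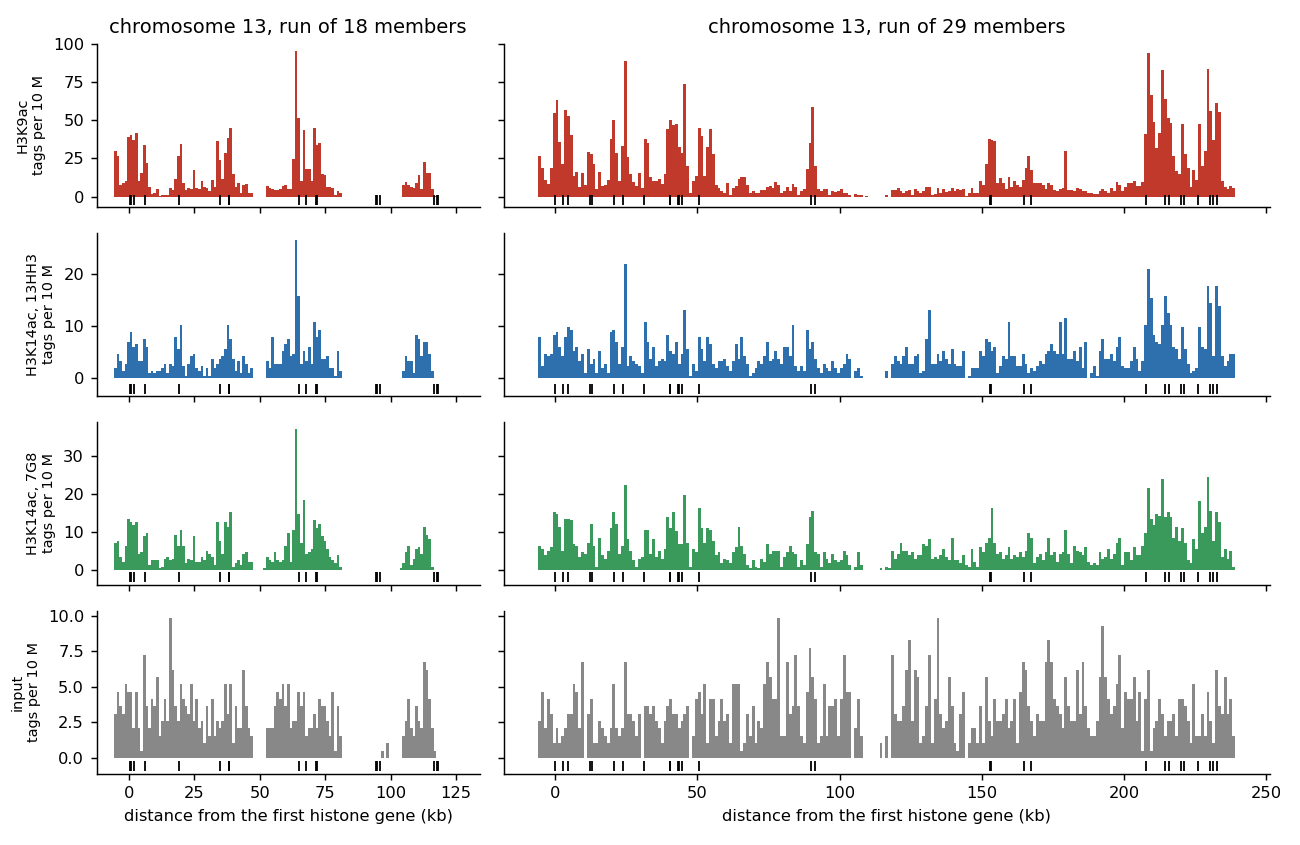
Tags per 10M in 1 kb bins (vertical axis, with its own scale in each row) along the runs of 18 and 29 histone genes on chromosome 13, against distance from the first histone gene in kb (horizontal axis). Black ticks under each track mark the TSSs of members. The tallest H3K9ac bins lie at ticks, and the tracks have gaps at the ticks of the 4 copies with 0 tags, near the right end of the left panels.

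Around the TSS the tags formed a shoulder on each side of a dip. Summed over the 67 members, H3K9ac gave 49.9 tags per 10M, per gene and per kb, in the part from 500 to 1000 bp downstream, 14.4 in the 200 bp before the TSS, and 40.4 from 1000 to 500 bp upstream. Over all protein-coding genes the same parts gave 19.1, 15.1 and 13. All genes had a dip too, with shoulders nearer the TSS, 19.5 from 500 to 200 bp upstream and 25.7 in the first 200 bp downstream. Upstream, the members differed by whether they stand head to head with another member. The 26 that do had 17.8 from 500 to 200 bp upstream and 43.6 from 1000 to 500 bp. The 41 others had 40.3 and 38.4, so their upstream shoulder was not farther out in this way. As a ratio over input, the 200 bp before the TSS were at 2.78 on the log2 scale for the members and at 1.74 for all genes, since the input was lower there at the members, 2.09 against 4.53 tags. From 2 to 3 kb downstream the members still had a log2 ratio of 2.62 for H3K9ac, against 0.72 for all genes. Neighbouring members lie within this distance of each other, so their tags are counted more than once.

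The sequence limits the profile. In the 100 bp bin from 200 to 300 bp downstream of the TSS, inside the coding sequence, only 23.9% of the words of the members were unique, whereas 87.9% were unique in the 100 bp before the TSS. From 600 to 500 bp upstream 24.2% were unique at the members that stand head to head, against 87.7% at the others. How far this lowers the levels in the coding sequence, or upstream in the pairs, was not tested. The ratio over input at 200 to 500 bp was 3.70 for H3K9ac and 1.79 for 13HH3.

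**Figure D4:**
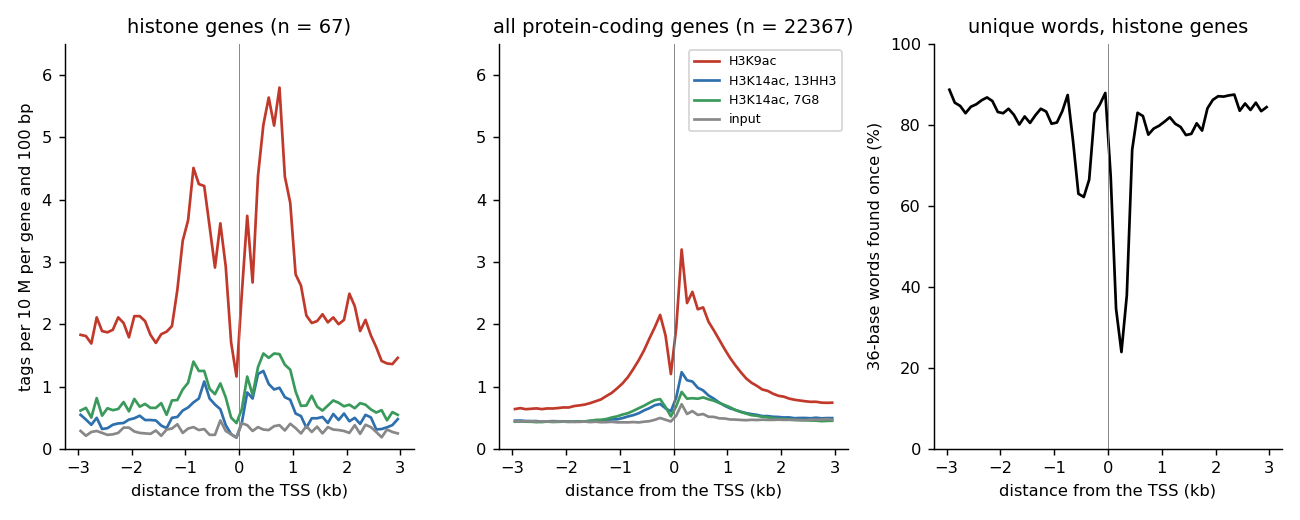
Mean tags per 10M, per gene and per 100 bp (vertical axis), against distance from the TSS in kb (horizontal axis) for the 67 histone genes at left and all 22367 protein-coding genes in the middle, with the 4 libraries as lines, and the percentage of 36-base words of the histone genes found once in the genome at right. H3K9ac at histone genes peaks from 700 to 800 bp downstream of the TSS, at 5.80, and the unique words fall to 23.9% at 200 to 300 bp.

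In 13 places members face away from each other with TSSs at most 1 kb apart, and 12 of these pairs join an H2A and an H2B gene. The distance between the TSSs ran from 168 to 693 bp, with a median of 241 bp. The H3K9ac median was 3.73 over the 22 members of such pairs with enough input tags and 3.71 over the 40 other members. For 13HH3 the medians were 1.07 and 1.47, and for 7G8 1.81 and 1.94, with overlapping ranges. With overlapping windows joined, the 67 members made 40 separate loci.

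Copies with few input tags were set apart. Hist1h2bq, Hist1h2ao, Hist1h2ap and Hist1h2br had 0 tags in all 4 libraries, and no 36-base word of their windows occurs once in the genome. Hist1h4m had 1 input tag and 0 tags in the other libraries, with 4.75% of its words unique. No ratio was formed at these 5 genes. Hist1h2ao and Hist1h2ap have the same sequence in 2000 of 2000 bases around the TSS on opposite strands, and so do Hist1h2bq and Hist1h2br. The 60 bases before the TSS of Hist1h2ao (chr13:21902176-21902235, plus strand) and of Hist1h2ap (chr13:21925445-21925504, minus strand) are shown because reads from one cannot be told from reads of the other. No base is in capitals, since none differs.
Hist1h2ao: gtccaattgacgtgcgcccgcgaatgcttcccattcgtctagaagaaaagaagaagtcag
Hist1h2ap: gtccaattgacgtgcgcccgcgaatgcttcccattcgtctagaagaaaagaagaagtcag

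Many members, though none of the H1 genes and few of the H4 genes, lie in repeated sequence. The median share of unique words was 76.0% over the members and 98.8% over all genes, and 32 of 67 members (47.8%) had less than 75%, against 10.7% of all genes. The 6 H1 genes had from 89.8% at Hist1h1d to 100% at Hist1h1a and Hist1h1t. Of the H4 genes only Hist1h4m (4.75%) and Hist1h4n (5.00%) had less than 75%. Across the 62 members with enough input tags, the share of unique words and the input tags had a Spearman correlation of 0.64, and the share and the H3K9ac ratio one of -0.36. These points share libraries, and many share tags. At the 35 members with at least 75% unique words and 5 input tags, the medians were 3.57 for H3K9ac, 1.37 for 13HH3 and 1.77 for 7G8. The members also held more CpGs, with a median of 91.0 in the window of 2 kb against 60.0 over all genes, at a GC content of 49.4% against 51.1%.

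**Figure D5:**
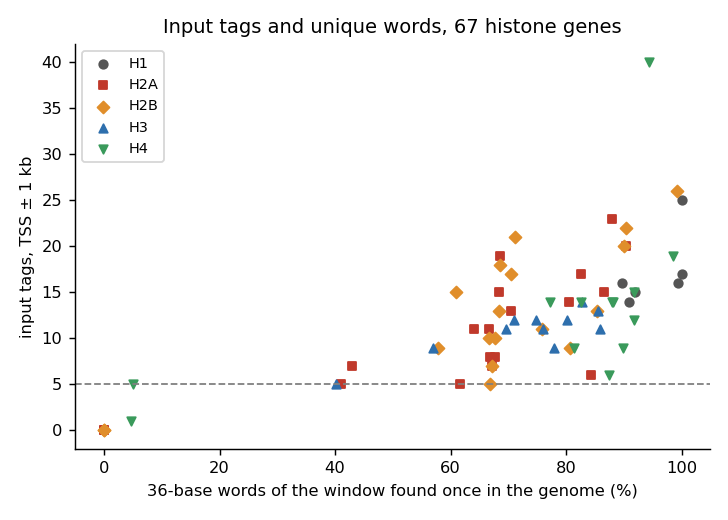
Input tags within 1 kb of the TSS (vertical axis) against the percentage of 36-base words of that window found once in the genome (horizontal axis) for the 67 histone genes, with symbols for the 5 types. The dashed line marks 5 input tags, and the 5 genes below it all have under 5% of their words unique.

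A list of variant and replacement histone genes, of which H2afx has the stem-loop too, had a lower median for H3K9ac than the members. Of 14 listed genes 13 were found as protein-coding genes, and their median was 2.60, with 11 of 13 at 2-fold or more, beside 63.8% of all genes. H3f3a, one of the genes of the replacement histone H3.3, was highest at 3.54, and Hils1, a linker histone gene of spermatids, lowest at 0.29. For 13HH3 the median was 0.87, with 6 of 13 at 2-fold, beside 27.1% of all genes, from -0.41 at H1fx to 2.41 at H2afx. For 7G8 it was 1.16, with 7 of 13 at 2-fold, beside 25.8% of all genes, from -0.38 at H1fx to 1.67 at H2afv.

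The factors that act on histone genes and their mRNAs reached 2-fold for H3K9ac at 16 of 16 listed genes, beside 63.8% of all genes, with a median of 2.85. Ccna2, the gene of cyclin A2, was highest for all 3 antibodies, with 4.53 for H3K9ac, 2.67 for 13HH3 and 2.38 for 7G8. Lsm11, of the U7 snRNP, was lowest for H3K9ac at 1.20 and for 7G8 at 0.02, and Zfp473, also of 3′ end processing, was lowest for 13HH3 at 0.01. The medians were 1.00 for 13HH3 and 1.17 for 7G8, and 8 and 9 of the 16 genes reached 2-fold, beside 27.1% and 25.8% of all genes.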

How the data were processed

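Per the methods of the study, the authors aligned single-end reads with ELAND to mm9, allowing 1 mismatch. The deposited files hold 1 line per tag with position and strand. The tags are 36 bases long, the values carry no normalization, and the score is 1 on every line. No position and strand repeats in the H3K9ac, 7G8 and input files, and 3.30% of the 13HH3 tags were repeats, which were dropped. How reads with several matches were treated is not given in the sources used here. Files of other marks or of expression were not used here.

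Each tag of the autosomes and sex chromosomes was moved 100 bp along its strand, counted around 1 TSS per gene (the 5′ end of the record) and scaled to 10000000 tags. The genome sequence was NCBIM37, the build of the files. A 36-base word was called unique if found once on both strands. The calculations used Python 3.11.15, numpy 2.4.6, pandas 2.3.3, SciPy 1.17.1, pysam, numba and matplotlib 3.10.9, and the ratio code was tested on simulated counts. Named were all members with under 5 input tags, the extremes of each type for H3K9ac and 13HH3, all members outside chromosome 13, the testis-expressed members, and the highest and lowest of 2 listed gene groups. The members and lists were chosen with earlier results of these data known.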

Additional observations from a re-analysis of the deposited data

How the results depend on the processing

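Of 360 values recomputed, 18 moved, 1 changed sign and 341 did neither. A count or share moved if it changed more than 1.5 times. A median moved if it left the median bounds of the single-gene intervals, with a like band for the differences at equal H3K9ac. This band is wide for a median over many members, and some settings cannot change some values. The 13HH3 median of 0.84 with windows of 500 bp, against 1.39, did not count as moved. With windows of 500 bp 36 members reached 2-fold for H3K9ac, 17 for 13HH3 and 26 for 7G8, of the 37 with enough input tags, and the share fell from 61.3% to 45.9% for 13HH3 and from 90.3% to 70.3% for 7G8, beside 66.8%, 30.4% and 23.8% of all genes with these windows. With joined windows 38, 22 and 34 of 39 loci did, with no like value for all genes, whose windows were not joined, and among the 35 members with at least 75% unique words 33, 22 and 31 did, beside 66.5%, 28.1% and 26.6% of such genes. At least 10 input tags left 24 of 44 members at 2-fold for 13HH3, beside 25.6% of all genes, and the 1 kb downstream alone left 36 of 43 for 7G8, beside 24.0%. Over the alternatives the median over members ran from 3.12 to 4.12 for H3K9ac, from 0.84 to 1.46 for 13HH3 and from 1.24 to 1.91 for 7G8. With 2 kb windows Hist1h2al, the single gene of its run, had 1.50 for H3K9ac and 1.31 for 13HH3. With background scaling the 7G8 median of the run of Hist1h2ba and Hist1h2aa was -0.02 in place of 0.06. In the clusters, bins of 500 bp gave shares of 41.1% for H3K9ac, 10.4% for 13HH3 and 18.1% for 7G8. Of the bins of the genome 6.77%, 5.08% and 2.61% did so. At least 1 input tag gave 63.5% for H3K9ac, beside 12.9%, and 23.9% for 13HH3, beside 12.3%. At least 10 gave 41.8% for H3K9ac, 9.09% for 13HH3 and 18.2% for 7G8, beside 6.99%, 4.18% and 1.56%. Fewer input tags make bins and ratios less certain, and 13HH3 tags at members are few, with a median of 34.0. Results without the testis-expressed members or Hist1h4n, the 7G8 to 13HH3 share and the comparison at equal H3K9ac were added after seeing the data. No paired analysis was possible because each group has 1 library.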

Other observations

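3 further histone gene records on these chromosomes are not annotated as protein-coding and entered no comparison. Hist2h3c2 had 140 tags of H3K9ac, 34 of 13HH3, 43 of 7G8 and 7 of input, and a H3K9ac ratio of 4.06 (2.98 to 5.40) on the log2 scale. Hist3h2bb-ps had 200, 72, 61 and 24 tags and 2.80 (2.18 to 3.47). Hist1h2aj had 129, 29, 44 and 21 tags and 2.36 (1.68 to 3.10). The counts of Hist3h2bb-ps are close to those of the member Hist3h2a (207, 73, 60 and 23). Those of Hist1h2aj are close to those of Hist1h2bm (133, 28, 47 and 21). How many tags these windows share with members was not counted, so the ratios are not read as signal of these records alone.

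The ratios of the 3 antibodies over input moved together across the 62 members, with Spearman correlations of 0.80 between H3K9ac and 13HH3, 0.89 between H3K9ac and 7G8 and 0.79 between 13HH3 and 7G8. All 3 ratios share the input tags as denominator.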
